A study of Mus musculus with 36 samples.

Results

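The acute-phase serum protein genes described here, in mouse liver, are 10: the serum amyloid A genes Saa1 (ENSMUSG00000074115), Saa2 (ENSMUSG00000057465) and Saa3 (ENSMUSG00000040026), the orosomucoid genes Orm1 (ENSMUSG00000039196) and Orm2 (ENSMUSG00000061540), haptoglobin Hp (ENSMUSG00000031722), hemopexin Hpx (ENSMUSG00000030895), lipocalin Lcn2 (ENSMUSG00000026822), and the protease inhibitor genes Serpina3n (ENSMUSG00000021091) and Itih4 (ENSMUSG00000021922). They were taken from a list of names and matched to the Ensembl IDs of the deposited table. All 10 were found among its 29546 IDs, and all 10 were among the 12596 genes tested, those that reached 10 normalized counts in 4 or more of the 36 libraries. Lcn2 lay under that minimum in most control libraries and was kept through the libraries in which it was high.

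Livers of C57BL/6 mice were sequenced in 9 groups of 4 libraries. Cholestasis, the retention of bile, was produced by bile duct ligation for 7 days (group BDL7) or for 28 days (group BDL28), and sham-operated mice were the controls (SHAM). It was also produced by cyclosporin A, a drug against graft rejection that also hinders bile secretion, given by oral gavage at 15 mg/kg body weight in olive oil (CsA7 and CsA28), with olive oil gavage alone as control (VEHICLE), and by a diet with 0.1% by weight 3,5-diethoxycarbonyl-1,4-dihydrocollidine, a porphyrinogenic compound that injures bile ducts (DDC7 and DDC28), with a control diet (CTLD). The labels give neither sex nor age, and no day for the controls, so each control group served both days. They number the replicates but do not name the animals, so p-values measure the spread between these libraries. QuantSeq reads the 3' end of messenger RNA, so a gene's count follows the number of its transcript ends. Recovered reads ran from 2081093 to 3770267 per library. The 13 hepatocyte markers listed for this work were read in every group, with summed normalized counts of 43743 to 116958 per library.

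Acute-phase proteins are secreted mainly by hepatocytes, and their transcripts rise within hours of infection, injury or surgery. Interleukin 6 and its relatives act through STAT3, while interleukin 1 and tumour necrosis factor act through NF-kB, and factors of the C/EBP family bind many of the promoters. Serum amyloid A proteins travel on high-density lipoprotein, orosomucoids carry lipophilic compounds, haptoglobin and hemopexin bind free hemoglobin and heme, lipocalin 2 binds the iron carriers of bacteria, and Serpina3n and Itih4 belong to families of protease inhibitors.

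The olive oil controls did not form a uniform group. In VEHICLE replicates 1 and 2, each of the 10 genes was above its value in all 8 SHAM and CTLD libraries and in all 8 cyclosporin libraries. Among all 12596 genes, 17.2% were above all 8 SHAM and CTLD libraries in replicate 1 and 11.6% in replicate 2, and 16.1% and 13.2% were above all 8 cyclosporin libraries. In replicates 3 and 4, 0 of the 10 were above all 8 SHAM and CTLD libraries, where the background was 11.8% and 11.6%. In the same replicates 4 and 3 of the 10 were below all 8, where the background was 11.9% and 10.6%. Against all 32 libraries outside the olive oil group, 7 of the 10 genes were highest in replicate 1 and 4 in replicate 2, where the background was 4.83% and 2.44%.

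Saa1 shows the size of the split, with normalized counts of 9848, 7126, 281 and 296 in VEHICLE replicates 1 to 4. Saa2 had 10084, 6509, 64.6 and 73.8, and Saa3 had 1458, 295, 19.7 and 33.5. The first and second libraries exceeded the 4 BDL7 libraries for all 3 amyloid genes. Lcn2 had 851, 315, 4.38 and 0, so that these libraries stood below BDL7 (1404 to 1875) but far above SHAM (3.56 to 15.8). The value of 0 came from 0 reads, which allows up to 3 reads of the library's total as counting error alone. Itih4, which stayed between 1050 and 2146 in the other 8 groups, had 4666, 3721, 1787 and 1766.

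**Figure D1:**
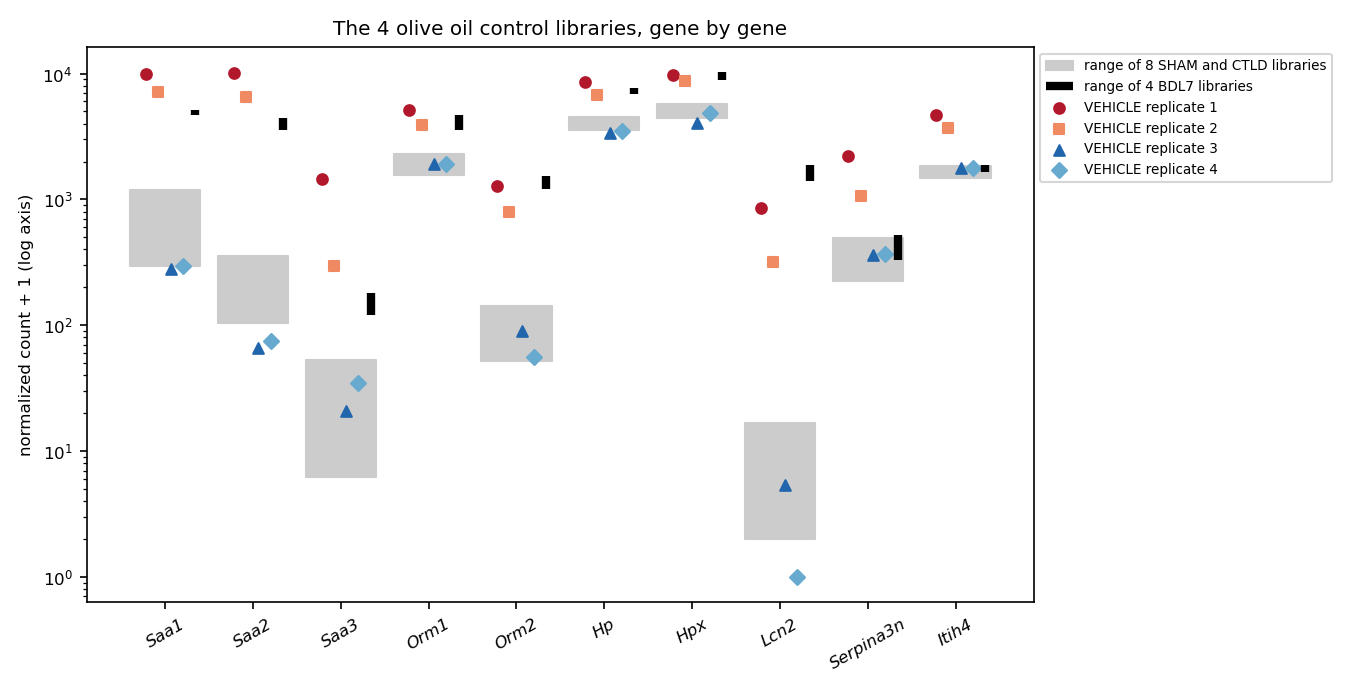
Normalized count + 1 (log axis) of each of the 10 genes in the 4 olive oil control libraries (coloured symbols), with the range of the 8 SHAM and CTLD libraries (grey boxes) and of the 4 BDL7 libraries (black bars). Replicates 1 and 2 lie above the grey box for all 10 genes, and replicates 3 and 4 lie inside or below it.

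Further genes moved with these libraries. Of 28 other acute-phase genes listed, 25 were above all 8 SHAM and CTLD libraries in replicate 1, 23 in replicate 2, 3 in replicate 3 and 4 in replicate 4. The 16 listed genes known to fall in the acute phase did not go below. In replicates 1 to 4, 6, 3, 2 and 6 of them were above all 8, and 0 were below all 8 in each. Of 6 tested neutrophil markers, 5 were above in replicates 1 and 2 and 0 in replicates 3 and 4, and the summed counts of the 13 listed were 316, 122, 9.85 and 6.70 for replicates 1 to 4, with Ly6g, Mpo and Ltf at 0 in all 4. Of 13 monocyte and macrophage markers, 6, 5, 1 and 0 were above in replicates 1 to 4. Of 13 hepatocyte markers, 1, 1, 0 and 2 were above in replicates 1 to 4. Their part in the members' values was not tested. In replicate 1, 13 genes (0.103% of those tested) were at least 4-fold above the other 3 libraries, against 2 genes (0.0159%) in each of replicates 2, 3 and 4. Among the 13 were Saa3, the metallothionein genes Mt2 (7947 against a next highest 539) and Mt1 (6502 against 1034), and Il1rn, the interleukin 1 receptor antagonist (82.5 in replicate 1). No label separates these libraries.

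The fit used for testing shares 1 estimate of spread among all 9 groups for each gene, so the split within VEHICLE widened the error of the 10 genes in comparisons that do not use VEHICLE. The median standard error of a treated minus control log2 difference was 0.48 over the 10 genes with 36 libraries and 0.26 in the ligation and diet comparisons without VEHICLE replicates 1 and 2. Results are therefore given with and without these libraries, and the omission was chosen after their values were seen. Because it was chosen on the values of these 10 genes, it narrowed their error in particular. Counts of the 10 without these libraries are thus not a like comparison with the shares of all genes beside them. Calls are limma's, at a Benjamini-Hochberg adjusted p under 0.05, and log2 changes are on the log2(normalized count + 1) scale with their standard errors.

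The sequences before the start sites are shown for 5 genes because they bear on how like the genes are and carry the matches described below. They are the 250 bases before the start, 5' to 3' on the gene's strand, from RefSeq on GRCm38.p6, at chr7:46742981-46743230 (minus strand) for Saa1, chr7:46751583-46751832 (plus) for Saa2, chr4:63362199-63362448 (plus) for Orm2, chr2:32387740-32387989 (minus) for Lcn2 and chr14:30886226-30886475 (plus) for Itih4. Capitals mark a match to the C/EBP motif TTGCNNAA or, in Itih4, to the STAT motif TTCNNNGAA.
Saa1: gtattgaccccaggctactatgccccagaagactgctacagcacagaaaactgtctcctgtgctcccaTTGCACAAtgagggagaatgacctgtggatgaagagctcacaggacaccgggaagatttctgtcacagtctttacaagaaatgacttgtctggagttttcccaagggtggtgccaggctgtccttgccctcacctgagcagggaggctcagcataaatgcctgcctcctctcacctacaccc
Saa2: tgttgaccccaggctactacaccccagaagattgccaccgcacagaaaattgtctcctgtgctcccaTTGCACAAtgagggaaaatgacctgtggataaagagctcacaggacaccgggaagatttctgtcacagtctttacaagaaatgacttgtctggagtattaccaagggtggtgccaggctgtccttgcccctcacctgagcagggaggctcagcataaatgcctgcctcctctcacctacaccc
Orm2: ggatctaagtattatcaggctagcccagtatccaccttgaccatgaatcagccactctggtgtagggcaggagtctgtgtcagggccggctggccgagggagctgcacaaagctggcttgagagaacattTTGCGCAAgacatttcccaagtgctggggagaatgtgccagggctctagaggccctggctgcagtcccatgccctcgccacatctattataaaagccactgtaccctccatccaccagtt
Lcn2: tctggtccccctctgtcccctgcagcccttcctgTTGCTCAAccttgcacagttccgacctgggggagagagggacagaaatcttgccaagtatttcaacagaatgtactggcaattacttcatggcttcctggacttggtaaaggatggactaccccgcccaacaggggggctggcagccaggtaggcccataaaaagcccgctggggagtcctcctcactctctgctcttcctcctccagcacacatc
Itih4: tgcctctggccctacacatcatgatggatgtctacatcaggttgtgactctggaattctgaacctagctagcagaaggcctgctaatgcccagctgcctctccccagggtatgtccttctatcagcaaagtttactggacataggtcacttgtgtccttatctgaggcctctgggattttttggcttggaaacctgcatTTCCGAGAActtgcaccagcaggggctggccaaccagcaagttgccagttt

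Of the 10 genes, 8 had an entry in the promoter table and Orm1 and Hp had none. TTGCNNAA, searched on both strands, was in 6 of 8 (Saa1, Saa2, Saa3, Orm2, Hpx and Lcn2) and in 9.56% of 32851 promoters of the same length. TTCNNNGAA was in 1 of 8, Itih4, and in 7.02% of promoters. The NF-kB consensus was in 0 of 8 and in 7.25%. Looser or other spellings tried on the same sequences gave 7 of 8 against 36.8% for the C/EBP form TTNNGNAA and 1 of 8 against 1.41% for another NF-kB form, so the counts depend on the spelling chosen. Saa1 and Saa2 share 94.8% of aligned positions in these 250 bases, with their matches at -182 to -175 and -183 to -176 from the start, and are near copies of each other. Saa3, a gene of the same family, shares 48.9% with Saa1. A match is a run of letters and not a measured binding site.

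After 7 days of ligation the acute-phase genes were high together. With 36 libraries 8 of the 10 rose against SHAM, where 20.2% of all tested genes did, and the median log2 change was 1.59 over the 10 against 0.01 over all genes. In all but Itih4 the 4 BDL7 libraries lay above the 4 SHAM libraries, 9 of 10 against 19.8% of all genes. Without VEHICLE replicates 1 and 2, 9 of 10 rose, against 20.6%.

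The serum amyloid genes rose by different amounts. Saa1 had 5086, 5180, 4667 and 4946 in BDL7 against 1152, 928, 987 and 1188 in SHAM. Saa2 had 4459, 3580, 3609 and 4329 against 284, 267, 206 and 353, and Saa3 had 178, 171, 167 and 121 against 31.7, 33.5, 5.26 and 21.3. No BDL7 library overlapped SHAM for these genes. Their log2 changes were 2.23 ± 0.75 for Saa1 (adjusted p = 0.019), 3.86 ± 1.03 for Saa2 (adjusted p = 0.00379) and 2.99 ± 0.78 for Saa3 (adjusted p = 0.00316), which are 4.69-fold, 14.5-fold and 7.94-fold.

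The orosomucoids differed more widely. Orm2 had 1199, 1421, 1525 and 1479 in BDL7 against 78.4, 50.9, 57.9 and 59.3 in SHAM. Orm1 had 3593, 4665, 4425 and 3899 against 2309, 2058, 2111 and 2036. Every ligated library was above every sham library for both, yet the change was 22.7-fold for Orm2 (log2 4.50 ± 0.59, adjusted p = 8.24e-07) and 1.94-fold for Orm1 (log2 0.96 ± 0.23, adjusted p = 0.00138).

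Hp and Hpx rose less than 2-fold and evenly. Hp was 6912 to 7658 in BDL7 and 3857 to 4520 in SHAM, and Hpx was 8827 to 10251 and 4734 to 5740, with no overlap. Their log2 changes were 0.81 ± 0.18 (adjusted p = 0.000414) and 0.92 ± 0.18 (adjusted p = 0.000166). Lcn2 changed most among the 10, from 4.13, 6.21, 15.8 and 3.56 in SHAM to 1853, 1404, 1591 and 1875 in BDL7, a log2 change of 7.84 ± 1.18 (adjusted p = 5.77e-06). The sham values rest on 3 to 15 reads per library, so the fold of Lcn2 is imprecise.

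The protease inhibitors were the 2 genes not called with 36 libraries. Serpina3n had 475, 523, 360 and 326 in BDL7 against 223, 235, 241 and 224 in SHAM. These groups did not overlap, and the log2 difference of 0.84 ± 0.37 had an adjusted p of 0.0753 with 36 libraries and 0.00352 without VEHICLE replicates 1 and 2. Itih4 was 1645 to 1871 in BDL7 and 1590 to 1748 in SHAM. Its groups overlapped, with a log2 difference of 0.10 and a 95% interval of -0.32 to 0.51.

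**Figure D2:**
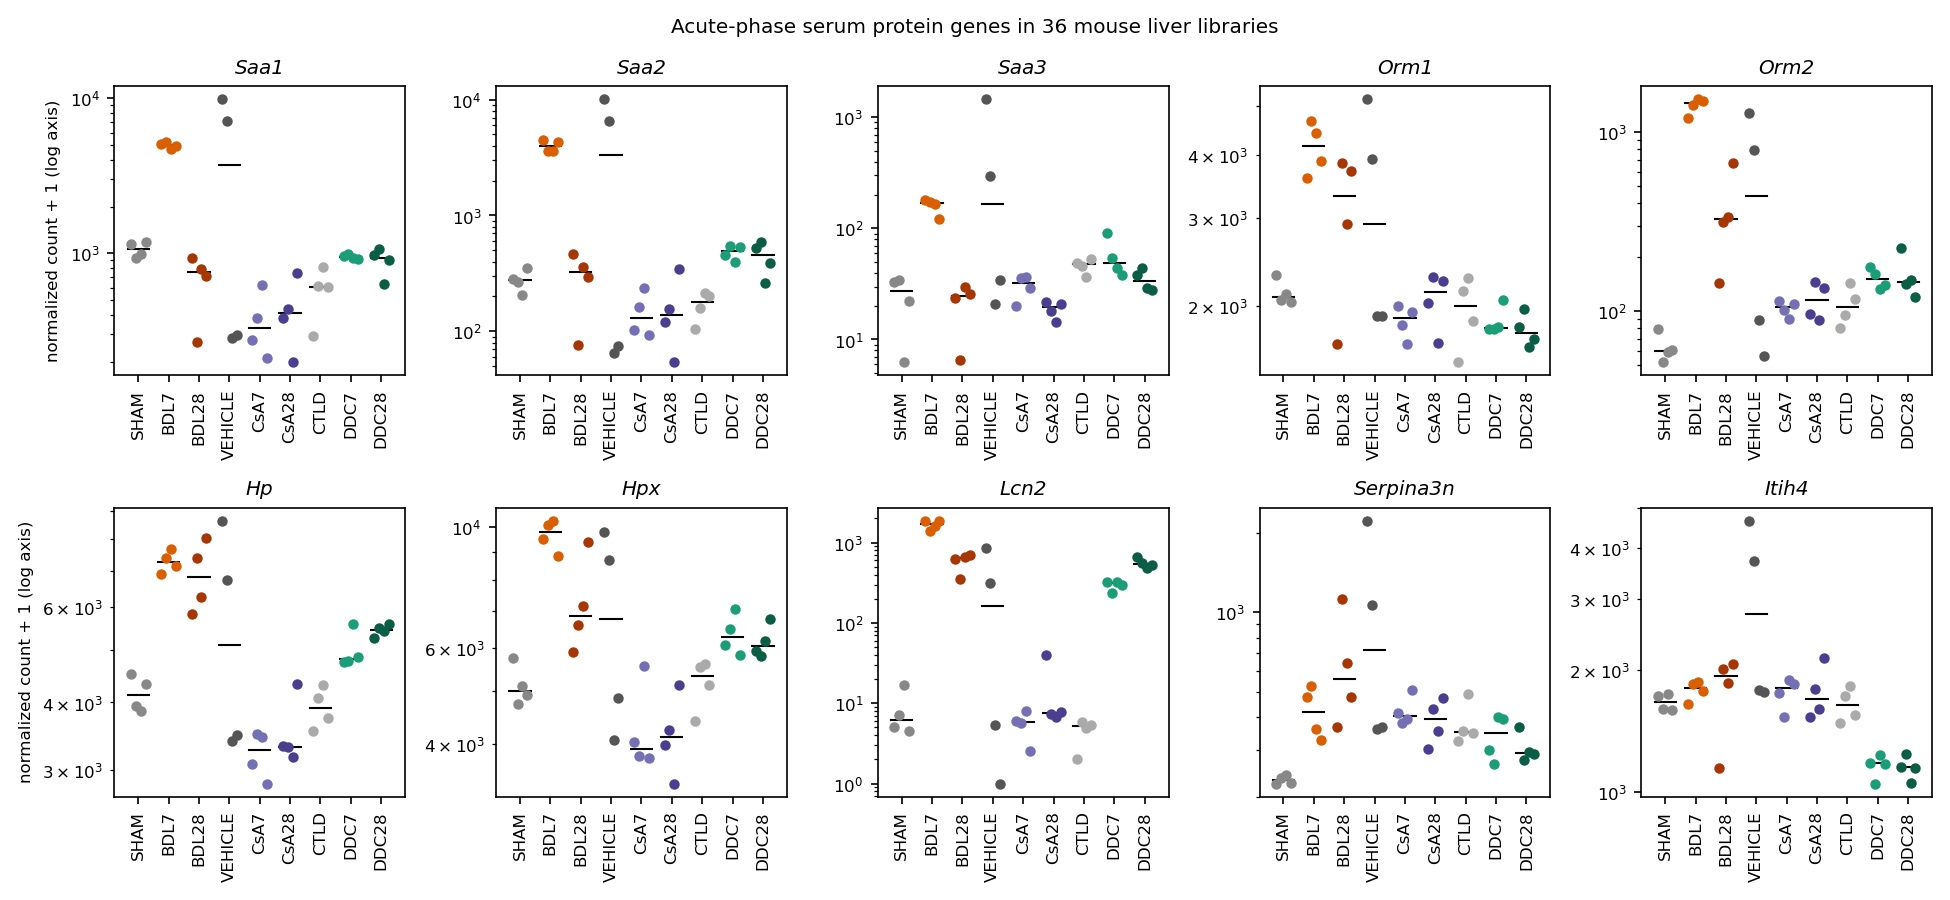
Normalized count + 1 (log axis, with its own range for each gene) of the 10 genes in all 36 libraries, 4 points per group, with a bar at the group median. BDL7 lies above SHAM for every gene but Itih4, and the VEHICLE points split into a high and a low pair for every gene.

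At 28 days of ligation the amyloid genes were no longer above sham, while others stayed high. Of the 10, 5 rose against SHAM with 36 libraries, where 24.1% of all genes did, and 6 without VEHICLE replicates 1 and 2, where 24.3% did. Lcn2 (619, 356, 655 and 700; log2 6.27 ± 1.18), Orm2 (142, 315, 335 and 672; log2 2.36 ± 0.59), Serpina3n (366, 1125, 639 and 477; log2 1.36 ± 0.37), Hp (log2 0.72 ± 0.18) and Hpx (log2 0.48 ± 0.18) made up the 5, with limma adjusted p from 7.92e-05 to 0.0303. The call of Hpx, the weakest, was lost when SHAM replicate 2, 3 or 4 or BDL28 replicate 3 or 4 was left out, with adjusted p up to 0.133, and when no filter on low values was applied (adjusted p = 0.0767). All 4 BDL28 libraries were above all 4 SHAM libraries in these 5 genes, as in 18.7% of all genes. The sixth was Orm1 (log2 0.44 ± 0.23, adjusted p = 0.115 with 36 libraries and 0.0211 without them).

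Saa1 was 936, 267, 789 and 716 in BDL28 and had a log2 difference from SHAM of -0.79, with an interval of -2.32 to 0.75 with 36 libraries and -1.54 to -0.03 without them (adjusted p = 0.406 and 0.0797). Saa2 had 462, 75.3, 358 and 294, and Saa3 had 22.6, 5.51, 28.8 and 24.7. BDL28 replicate 2 was the lowest library of its group for all 3 amyloid genes and for Lcn2, but the highest for Serpina3n and Orm1.

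Between the 2 days of ligation, 4 of the 10 genes fell with 36 libraries, where 16.7% of all genes did, and 7 without VEHICLE replicates 1 and 2, where 17.1% did. Saa1 fell by 3.02 ± 0.75, Saa2 by 4.01 ± 1.03, Saa3 by 3.09 ± 0.78 and Orm2 by 2.14 ± 0.59 on the log2 scale, with limma adjusted p of 0.00308, 0.00412, 0.00358 and 0.00725. The groups did not overlap for these 4 or for Lcn2 (12.1% of all genes had all BDL28 libraries below BDL7), whose difference was -1.56 ± 1.18 (adjusted p = 0.333 with 36 libraries and 0.0217 without them). Hp and Itih4 had differences of -0.09 and -0.05, with intervals of -0.45 to 0.27 and -0.46 to 0.37.

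The DDC diet gave a narrower response. With 36 libraries only Lcn2 rose (1 of 10, against 24.7% of all genes) and only Itih4 fell (1 of 10, against 22.1%) at day 7, and Lcn2 and Hp rose (2 of 10, against 27.9%) and Itih4 fell (1 of 10, against 24.7%) at day 28. These shares of rising genes are not above the background. Without VEHICLE replicates 1 and 2 the counts were 4 higher and 1 lower at day 7 (25% and 22.2% of all genes), and 3 higher and 1 lower at day 28 (28.2% and 24.9%). In libraries, 5 of the 10 genes had all 4 DDC7 values above all 4 CTLD values (23.2% of all genes) and 4 did at DDC28 (25%).

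Lcn2 was 320, 237, 322 and 299 in DDC7 and 665, 557, 480 and 518 in DDC28, against 1.01, 4.86, 3.91 and 4.36 in CTLD. No library overlapped, and the log2 changes were 6.13 ± 1.18 and 7.04 ± 1.18 (adjusted p = 0.000112 and 1.38e-05). The CTLD values rest on 1 to 4 reads per library, so these folds too are imprecise. Neutrophils also make lipocalin 2. The summed counts of the 13 neutrophil markers were 10.4 to 28.4 in CTLD, 116 to 224 in DDC7 and 384 to 410 in DDC28, and 35.8 to 57.8 in SHAM, 218 to 364 in BDL7 and 217 to 502 in BDL28, with Ly6g, Mpo or Elane at 0 in the 4 libraries of several groups. Their part in Lcn2 was not tested.

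Saa2 was 458, 544, 393 and 534 in DDC7 and 526, 592, 261 and 385 in DDC28, against 103, 159, 215 and 201 in CTLD. Neither treated group overlapped the control, with log2 differences of 1.54 ± 1.03 and 1.36 ± 1.03. The adjusted p was 0.227 and 0.278 with 36 libraries, and 0.00782 and 0.0157 without VEHICLE replicates 1 and 2. Saa1 (921 to 992 in DDC7, 631 to 1067 in DDC28, 294 to 817 in CTLD) had differences of 0.80 and 0.68 and passed in neither fit.

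Hp was 4745, 4770, 5577 and 4843 in DDC7 and 5266, 5480, 5412 and 5584 in DDC28, against 3547, 4077, 4313 and 3748 in CTLD. All treated libraries were above all controls. Its change passed with 36 libraries at day 28 (log2 0.47 ± 0.18, adjusted p = 0.0229, or 0.062 without CTLD replicate 1 and 0.064 with no filter) and not at day 7 (log2 0.35 ± 0.18, adjusted p = 0.103 with 36 libraries and 0.00399 without them). Hpx, at 5817 to 7061 in DDC7 and 5792 to 6788 in DDC28 against 4406 to 5597 in CTLD, had differences of 0.30 and 0.26 that did not pass with 36 libraries (adjusted p = 0.176 and 0.239; 0.0468 and 0.0827 without VEHICLE replicates 1 and 2). Neither orosomucoid passed with 36 libraries. The 95% interval of Orm1 was -0.52 to 0.42 at day 7 and -0.59 to 0.36 at day 28. Orm2 had log2 differences of 0.51 (interval -0.70 to 1.73) and 0.54 (-0.68 to 1.76), and it was higher at both days when limma was fitted to the compared groups alone (adjusted p = 0.0179 and 0.0488).

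Itih4 was the only one of the 10 to fall on the diet. It had 1178, 1050, 1232 and 1176 in DDC7 and 1155, 1241, 1056 and 1148 in DDC28, against 1484, 1723, 1831 and 1553 in CTLD. Every DDC library was below every control library, as in 20.8% of all genes at DDC7 and 22% at DDC28. It fell by 0.50 ± 0.20 and 0.52 ± 0.20 on the log2 scale (adjusted p = 0.0406 and 0.0325). The size depends on the scaling: scaled to equal totals the differences were -0.16 at both days (adjusted p = 0.510 and 0.503), and after quantile normalization they were -0.17 and -0.22 (adjusted p = 0.384 and 0.233). With no filter the adjusted p was 0.0998 and 0.0796. At day 7 the call was also lost when any 1 of CTLD replicates 2 to 4 or of the 4 DDC7 libraries was left out (adjusted p up to 0.099), and at day 28 when CTLD replicate 2 or 3 or DDC28 replicate 1, 3 or 4 was (up to 0.083). Summed hepatocyte marker counts moved the same way, from 94229 to 116958 in CTLD to 50992 to 64676 in DDC7 and 50417 to 61920 in DDC28. They were 81700 to 90068 in SHAM and 43743 to 55863 in BDL7. Their part in the Itih4 values was not tested. In whole tissue, fewer cells of a type and less RNA per cell cannot be told apart. Between DDC28 and DDC7, limma called 0 of the 10 (5.7% of all genes), with 0 at an unadjusted p under 0.05, and edgeR and DESeq2 also called 0.

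The ligation and DDC effects were compared directly, as the difference between each treated group and its own control. At day 7, Orm2 differed with 36 libraries (1 of 10, against 3.78% of all genes higher under ligation), by 3.99 ± 0.84 on the log2 scale (adjusted p = 0.00386). Without VEHICLE replicates 1 and 2, 8 of 10 were higher under ligation (3.97% of all genes), the exceptions being Saa1 (1.43 ± 0.52, adjusted p = 0.0837) and Lcn2 (1.71 ± 0.73, adjusted p = 0.145). At day 28, Serpina3n differed by 1.67 ± 0.53 (limma adjusted p = 0.0416), 1 of 10 against 4.69% of all genes. Its adjusted p was up to 0.099 when single libraries of SHAM, BDL28, CTLD or DDC28 were left out. Without VEHICLE replicates 1 and 2, Orm2 and Itih4 passed too, 3 of 10 against 5.01%. That omission, chosen on these genes, took their median standard error from 0.68 to 0.36 at both days. The counts of 8 and 3 are therefore not a like comparison with the 3.97% and 5.01% of all genes.

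Cyclosporin comparisons turned on the 2 high control libraries. CsA7 had Saa1 at 273, 384, 619 and 211 and CsA28 at 383, 437, 198 and 749. Lcn2 was 5.06, 4.70, 6.90 and 1.52 in CsA7 and 38.8, 6.44, 5.71 and 6.69 in CsA28. All of these lie below VEHICLE replicates 1 and 2, and the Saa1 values lie on both sides of replicates 3 and 4 (281 and 296).

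With 36 libraries limma called 1 of the 10 lower at CsA7, Hp, by -0.68 ± 0.18 (adjusted p = 0.022), where 2.14% of all genes were lower. That call was lost without VEHICLE replicate 1 or 2 or CsA7 replicate 1 or 4 (adjusted p up to 0.106). Without VEHICLE replicate 3 and without replicate 4, 7 and 9 of the 10 were called. The share of all genes called in those fits is not given here, so these counts have no background beside them. At CsA28 limma called 0 with 36 libraries, where 0.0159% were lower. At an unadjusted p under 0.05, 10 and 9 of the 10 were lower, against 9.27% and 4.95% of all genes. On the recovered reads, edgeR called 10 lower at CsA7 and 4 at CsA28 (2.57% and 0.0476% of all genes), and DESeq2 called 10 and 9 (2.96% and 0.341%). Without VEHICLE replicates 1 and 2, limma called 0 at each day (2.75% and 0.0318% of all genes), with 0 and 1 at an unadjusted p under 0.05, and the median log2 difference over the 10 genes went from -1.10 at both days to 0.18 at CsA7 and 0.09 at CsA28. Against replicates 3 and 4 alone, the 95% interval of the log2 difference at CsA7 was -0.68 to 1.17 for Saa1, -0.19 to 2.14 for Saa2, -0.35 to 0.14 for Hp and -0.33 to 0.28 for Itih4. Between CsA28 and CsA7, limma, edgeR and DESeq2 each called 0 of the 10 (limma 2.45% of all genes), and limma had 0 at an unadjusted p under 0.05.

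**Figure D3:**
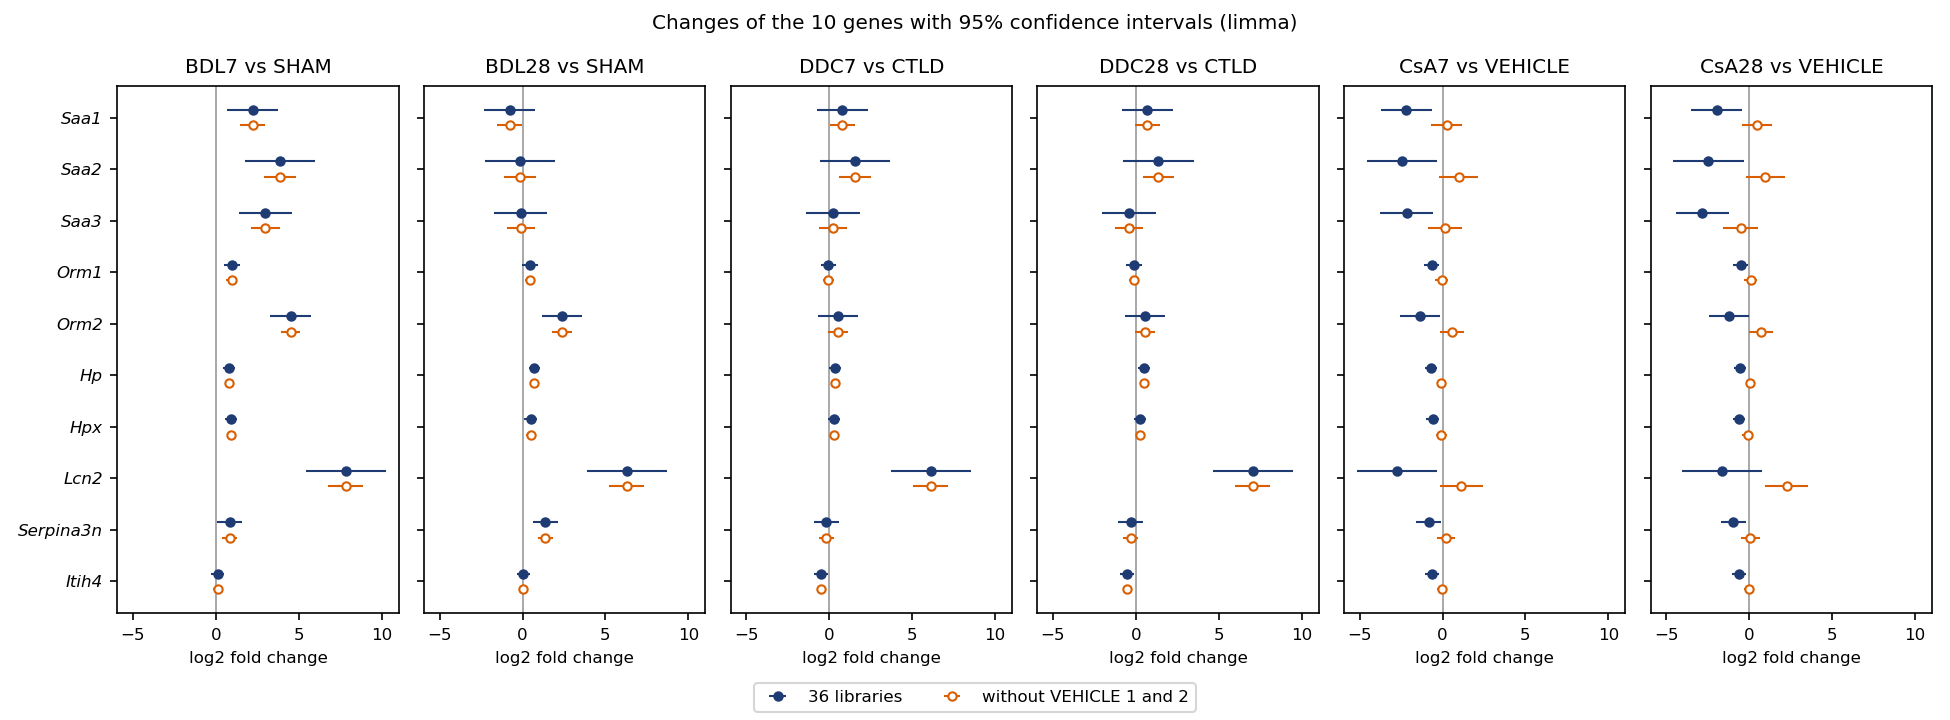
Log2 fold change of the 10 genes in the 6 treated groups against their controls with 95% confidence intervals from limma, with all 36 libraries (filled points) and without VEHICLE replicates 1 and 2 (open points). The estimates under ligation and diet are the same in both fits with narrower intervals in the second, while the cyclosporin estimates move toward or past 0.

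The ligation effect at day 7 exceeded the cyclosporin effect for 9 of the 10 genes with 36 libraries, where 11.7% of all genes were higher, and for 8 without VEHICLE replicates 1 and 2, where 9.11% were. The sizes depended on those libraries. For Saa1 the difference was 4.41 ± 1.06 and became 1.98 ± 0.58 (adjusted p = 0.003 and 0.0177), and for Orm2 it was 5.87 ± 0.84 and became 3.96 ± 0.45 (adjusted p = 1.13e-05 and 1.17e-06). Serpina3n lost its call, with 1.67 ± 0.53 becoming 0.63 ± 0.35 (adjusted p = 0.0209 and 0.224).

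Among the controls, 4 of the 10 genes were higher in VEHICLE than in SHAM with 36 libraries (Saa3, Orm2, Serpina3n and Itih4), where 9.65% of all genes were. Without VEHICLE replicates 1 and 2 limma called 0 higher (4.91% of all genes), and 2 were lower, where 6.07% of all genes were: Saa1 by -1.87 ± 0.45 (adjusted p = 0.00786) and Saa2 by -1.97 ± 0.57 (adjusted p = 0.0259). The sign of the Saa1 and Saa2 differences between these controls therefore turned on those 2 libraries, while Saa3 had 2.73 with them and 0.42 without. Replicates 1 and 2 were left out after their high values for these genes were seen, so the lower direction followed partly from that choice. The adjusted p-values of Saa1 and Saa2 in that fit, and the 6.07% beside them, do not test a difference between these controls. For VEHICLE against CTLD limma called 0 of the 10 (0.0635% of all genes), with 7 higher in VEHICLE at an unadjusted p under 0.05 (4.56% of all genes), while edgeR called 3 higher (0.0715%) and DESeq2 7 (0.318%). Without the 2 high libraries limma called 0 (0.0238% of all genes), with 1 at an unadjusted p under 0.05. For CTLD against SHAM, limma, edgeR and DESeq2 called 0 with 36 libraries (limma 15.9% of all genes), and limma had 0 at an unadjusted p under 0.05. Without the 2 high VEHICLE libraries Saa3 (1.20 ± 0.42, adjusted p = 0.0483) and Serpina3n (0.70 ± 0.22, adjusted p = 0.0312) were higher in CTLD, 2 of 10 against 7.98%. Saa1 was nevertheless 928 to 1188 in SHAM and 294 to 817 in CTLD, with no overlap and a log2 difference of -0.95 ± 0.75 (adjusted p = 0.421, and 0.0748 without the 2 high VEHICLE libraries). It was the only 1 of the 10 with all CTLD libraries below SHAM, while 3 had all CTLD libraries above: Saa3, Orm2 and Serpina3n. The share of all genes separated in this way is not given here, so these counts have no background beside them.

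Saa1 with Saa2, and Orm1 with Orm2, are near-identical pairs. Over the last 300 bases of their longest coding transcripts, the end from which these libraries are read, Saa1 and Saa2 share 92.4% of aligned positions with a longest identical run of 73 bases, and Orm1 and Orm2 share 97.7% with a run of 141. Reads that fall in such runs cannot be assigned from sequence alone, so how counts divide within a pair is uncertain. Saa3 shares 42.5% with Saa1 over the same stretch.

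The division of reads within each pair was compared nonetheless. Saa2 took 19.8%, 22.3%, 17.3% and 22.9% of the reads of Saa1 and Saa2 in SHAM and 46.7%, 40.9%, 43.6% and 46.7% in BDL7. The share was thus 20.6% ± 2.59 (SD, n = 4) in SHAM and 44.5% ± 2.81 in BDL7, without overlap (2-sided exact permutation p = 0.02857, the smallest that 4 against 4 allows, and 0.04898 adjusted over 12 tests). At BDL28 it was 28.8% ± 4.85 (exact permutation p = 0.08571). On the diet it was 33.5% ± 3.15 in DDC7 and 32.5% ± 3.41 in DDC28 against 23.1% ± 2.82 in CTLD (exact permutation p = 0.02857 each). The 4 VEHICLE libraries had 50.6%, 47.7%, 18.7% and 19.9%, so replicates 1 and 2 exceeded every BDL7 library while replicates 3 and 4 were near SHAM.

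Orm2 took a far smaller share of its pair. It was 2.80% ± 0.37 (SD, n = 4) in SHAM, 25.4% ± 1.72 in BDL7 and 10.3% ± 3.62 in BDL28, and 5.20% ± 0.82 in CTLD, 7.52% ± 1.17 in DDC7 and 8.06% ± 2.10 in DDC28. Each treated group was above its control in all libraries (exact permutation p = 0.02857 each). VEHICLE had 19.8%, 16.8%, 4.43% and 2.79%. The CsA7 shares of 5.02% to 5.31% and the CsA28 shares of 4.50% to 5.91% lay between the pairs of VEHICLE libraries, and neither pair of genes differed from VEHICLE by the exact permutation test (adjusted p of 0.4675 and 0.4857).

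The summed count of each pair does not depend on how reads were divided within it. Saa1 and Saa2 together had 8964 ± 562 (SD, n = 4) in BDL7 and 1341 ± 175 in SHAM, a log2 difference of 2.75. Orm1 and Orm2 together had 5551 ± 592 and 2190 ± 135, a log2 difference of 1.34. Neither sum overlapped its control (exact permutation p = 0.02857 each, 0.1143 adjusted over 12 tests). At BDL28 both sums overlapped SHAM, with 343 to 1398 for the amyloid pair and 1823 to 4383 for the orosomucoid pair. On the diet the amyloid sum was 1322 to 1537 in DDC7 and 892 to 1659 in DDC28, against 397 to 1032 in CTLD. DDC7 did not overlap CTLD and DDC28 did (exact permutation p = 0.02857 and 0.05714, 0.1143 and 0.1714 adjusted). The orosomucoid sum was 1947 to 2200 in DDC7 and 1808 to 2115 in DDC28 against 1627 to 2415 in CTLD, with overlap.

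**Figure D4:**
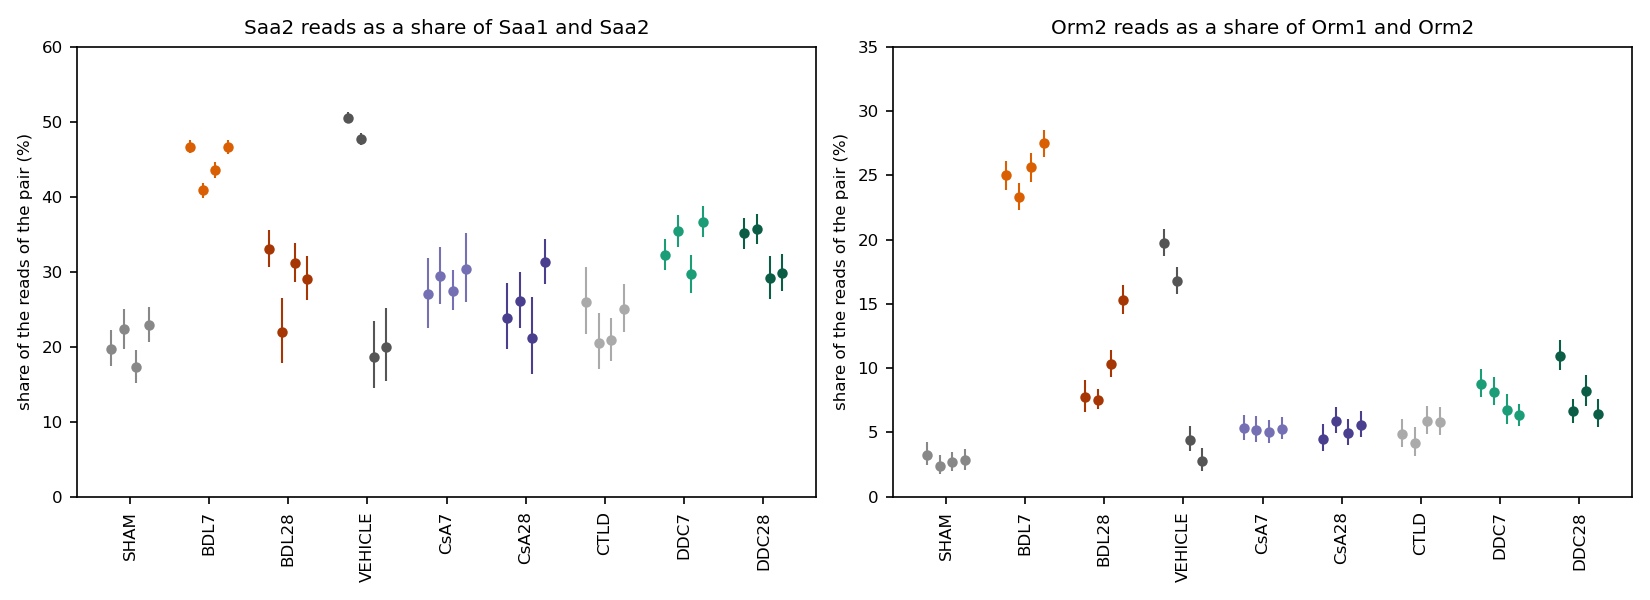
Reads of Saa2 as a share of Saa1 and Saa2 (left) and of Orm2 as a share of Orm1 and Orm2 (right) in each of the 36 libraries, in percent, with exact 95% binomial intervals that cover counting error only. BDL7 and VEHICLE replicates 1 and 2 have the highest shares of both pairs.

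The order of the groups by median differed between genes. BDL7 was first for 8 genes, and VEHICLE was first for Serpina3n and Itih4 through its high libraries. Neighbours in these orders mostly overlapped: of 8 neighbouring pairs of groups per gene, none was apart for Saa1, Saa2, Saa3 or Orm1. For Lcn2 BDL7 stood apart from BDL28, and DDC28 from DDC7. For Hp BDL28 stood apart from DDC28, and DDC7 from SHAM, for Hpx DDC28 stood apart from CTLD, and for Serpina3n and Orm2 SHAM, last in the order, stood apart from its neighbour. DDC7 and DDC28 were last for Itih4, apart from CTLD.

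The cytokines, receptors and factors of the pathway were examined from a list. Il6, the main inducer, was not tested, with 0 to 3.34 normalized counts in every library and 0 in all 4 VEHICLE libraries. Il1b, another inducer, had log2 differences of 0.17 ± 0.64 at BDL7 and -0.41 ± 0.64 at DDC7 that did not pass, and it fell by 1.87 ± 0.64 at BDL28 (adjusted p = 0.018). Of 10 tested cytokines and receptors, 4 rose and 3 fell at BDL7 and at BDL28, and 3 rose and 3 fell at DDC7 and at DDC28. Lifr, a receptor for leukemia inhibitory factor, fell by 1.74, 2.52, 1.71 and 1.91 on the log2 scale at BDL7, BDL28, DDC7 and DDC28, each with SE 0.14. Il1rap, the partner of the interleukin 1 receptor, fell by 1.48 to 1.98. Osmr, the oncostatin M receptor, rose by 2.01 ± 0.39 at BDL7 and 1.28 ± 0.39 at DDC7.

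Of 22 transducers and factors, 4 rose and 1 fell at BDL7, 5 rose and 1 fell at BDL28, and 8 rose and 3 fell at DDC7 and at DDC28. Among all tested genes, 20.2% rose and 18.5% fell at BDL7, and 24.1% and 22.7% at BDL28. The shares were 24.7% and 22.1% at DDC7, and 27.9% and 24.7% at DDC28. With 36 libraries the counts of this list under ligation are not above those shares in either direction. Without VEHICLE replicates 1 and 2, 7 rose and 1 fell at BDL7, and 6 rose and 2 fell at BDL28. In that fit 20.6% and 24.3% of all genes rose, so for rising genes the reading holds with 36 libraries only. Stat3 was 814 to 895 in BDL7 and 779 to 974 in SHAM, a log2 difference of 0.00 ± 0.14, and it rose by 0.53 ± 0.14 at DDC7 and 0.59 ± 0.14 at DDC28. Socs3, the feedback inhibitor induced by STAT3, was 89.3 to 128 in BDL7 against 26.1 to 80.6 in SHAM (log2 1.40 ± 0.62, adjusted p = 0.078 with 36 libraries and 0.031 without VEHICLE replicates 1 and 2). Cebpd rose by 1.14 ± 0.33 at BDL28 and 0.98 ± 0.33 at DDC7, Cebpb passed in none of the 4 groups with 36 libraries, and Cebpa fell by 0.58 to 1.09 in all 4. Tnfaip3 and Irak3, inhibitors of NF-kB signalling, rose by 2.52 ± 0.58 and 1.53 ± 0.37 at BDL7. In VEHICLE replicates 1 to 4, Stat3 was 796, 633, 452 and 393, Socs3 207, 112, 16.4 and 28.2, and Cebpd 160, 79.6, 30.6 and 44.3, so the first and second libraries were the highest of the 4 for these as well.

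Of the 28 other acute-phase genes, 15 rose and 4 fell at BDL7, 14 and 6 at BDL28, 10 and 7 at DDC7, and 11 and 8 at DDC28, with median log2 changes of 0.87, 0.92, 0.25 and 0.31. Among all genes tested, 18.5% were lower at BDL7 and 22.7% at BDL28, beside the shares of higher genes given above. Cp, the copper carrier ceruloplasmin, rose by 1.41 ± 0.12 at BDL7 and at BDL28 and by 0.72 ± 0.12 and 0.96 ± 0.12 on the diet. Cd14, a co-receptor for bacterial lipopolysaccharide that macrophages also make, rose by 4.24 ± 0.53 at DDC7. Members of the list fell too: Serpina1a, an alpha-1-antitrypsin gene, by 0.85 ± 0.10 at BDL7 and 1.16 ± 0.10 at DDC28, Pzp by 1.01 ± 0.09 at DDC7, and Crp by 1.22 ± 0.13 at BDL28. Of 16 genes known to fall in the acute phase, 9 fell at BDL7 and BDL28, 10 at DDC7 and 11 at DDC28. Others of the 16 rose, 1 at BDL7, 2 at BDL28, 1 at DDC7 and 2 at DDC28. Ttr, transthyretin, which is also among the hepatocyte markers, fell by 1.23 to 1.39 in all 4.

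Among 9 tested receptors and partners of the serum proteins, 4 rose at BDL7, 5 at BDL28, 4 at DDC7 and 6 at DDC28. At DDC28 1 fell. Among all tested genes, 20.2%, 24.1%, 24.7% and 27.9% rose in these 4 groups in the same order, and 18.5%, 22.7%, 22.1% and 24.7% fell. Hmox1, which degrades heme, rose by 1.60 ± 0.27 at BDL7 and 2.44 ± 0.27 at DDC7. Cd163, the haptoglobin-hemoglobin receptor of macrophages, rose by 1.08 ± 0.26 at BDL28. Markers of other cells moved in the same samples: all 13 monocyte and macrophage markers rose at BDL7 and 9 at DDC7, 9 and 5 of 10 cholangiocyte markers rose, and 12 and 10 of 13 hepatocyte markers fell. All 9 tested genes of the mitochondrial genome fell at BDL7, DDC7 and DDC28, and 7 at BDL28. Their part in the members' changes was not tested.

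The genes most like 4 of the members were ranked by Pearson's r of log2(normalized count + 1) over the 36 libraries, as a description, since libraries of a group share their treatment. For Saa1 they were Steap4 (r = 0.878), Atp11a, Serpina10, Ptpn1 and Tifa (0.797). For Orm2 they were Lrg1 (0.854), Orm3, C3, Prtn3 and Isyna1 (0.823), and for Hpx they were Lrg1 (0.877), Cyb561, Fgl1, Litaf and Fndc3b (0.841). For Lcn2 they were S100a8 (0.951), Cp (0.934), F13a1, Litaf and S100a9 (0.927). Without the 4 VEHICLE libraries r stayed between 0.773 for Saa1 with Tifa and 0.95 for Lcn2 with F13a1, and over the 9 group means it was 0.836 to 0.975. S100a8 and S100a9 are among the neutrophil markers.

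Among the 10 genes themselves, r over the 36 libraries was highest for Saa1 with Saa2 (0.98) and for Hp with Hpx (0.939). How reads divide between Saa1 and Saa2 is uncertain, as said above, and the part of this in their r was not tested. For Serpina3n and Itih4 the values differed by partner. Itih4 with Saa1 had r = 0.382 over 36 libraries and -0.02 over the 32 without VEHICLE, and Serpina3n with Saa1 had 0.316 and -0.16. With Orm1, Itih4 had 0.686 and 0.582, and Serpina3n had 0.645 and 0.482.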

How the data were processed

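Liver RNA of 36 C57BL/6 mice (QuantSeq 3' mRNA with unique molecular identifiers, per the labels) was processed by the authors on GRCm39 with STAR 2.7.9a, RSEM 1.3.1, UMI-tools 1.1.1, DESeq2 and Trim Galore, per the submitters' processing notes, which give no order. The deposited table holds signal values, gene counts divided by 1 factor per library. Dividing by the value of 1 read gave whole reads for 100% of values (tolerance 0.001). All columns were used. Symbols came from GENCODE M21, and 29121 of 29546 IDs matched. The members, gene lists, promoter motifs and tests were chosen with earlier results of these data known.

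Genes with at least 10 in at least 4 of 36 libraries (12596) were fitted with limma 3.58.1 in R 4.3.3 on log2(normalized count + 1) with 9 group coefficients, trend and robust options, for 15 contrasts, 2-sided, with Benjamini-Hochberg adjustment over all genes. The code was tested on simulated data. edgeR 4.0.16 and DESeq2 1.42.0 on recovered reads were alternatives (4918 and 4691 genes called at BDL7, against 4876 by limma), as were other pseudocounts, filters, scalings and sets of libraries. Read shares within gene pairs have exact Clopper-Pearson intervals, were compared by exact permutation tests, and their intervals cover counting error only. Replicates are numbered by the sample descriptions. No 2 libraries of a group agreed within sampling noise. Named genes were the 10 members, up to 4 genes per list and contrast by lowest adjusted p with 6 fixed regulators, the 5 genes most like each of 4 members, and up to 8 genes at least 4-fold above the other olive oil libraries. Values of Osmr at DDC7, Cebpa at BDL7 and Cp on the diet were added after they were seen.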

Additional observations from a re-analysis of the deposited data

Results flagged for a closer look

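In 5 of the 90 sets of 4 libraries (10 genes in 9 groups), the highest library lay far from the other 3 by Dixon's test, which chance does in about 1 set in 20. These were Orm1 in DDC7 replicate 4 (2061 normalized counts), Hp in CsA28 replicate 4 (4327) and in DDC7 replicate 3 (5577), Hpx in CsA7 replicate 3 (5552) and Lcn2 in CsA28 replicate 1 (38.8). Their causes were not tested. The VEHICLE libraries are not among them, since 2 of the 4 were high and the test looks for 1.

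The effects of 2 models differed by a direct test for 11 results. Ligation exceeded the DDC diet for Orm2 at day 7 by 3.99 and for Serpina3n at day 28 by 1.67 on the log2 scale. Ligation exceeded cyclosporin at day 7 for Lcn2 by 10.60, Saa2 by 6.31, Orm2 by 5.87, Saa3 by 5.15, Saa1 by 4.41, Serpina3n by 1.67, Orm1 by 1.61, Hpx by 1.51 and Hp by 1.48. Each cyclosporin difference was smaller without VEHICLE replicates 1 and 2: 6.70, 2.88, 3.96, 2.84, 1.98, 0.63, 0.99, 0.99 and 0.91 in the same order, and Serpina3n no longer passed (adjusted p = 0.224).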

How the results depend on the processing

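The counts of members called are given here for each alternative that moved them by over 1.5 times, and the cause was not tested. The share of all genes called in the same fit is given in the Results for some of these settings only. For the others, a moved count cannot be told apart from a change in the calls over all genes. With 36 libraries the counts were 1 (CsA7), 0 (CsA28), 2 (DDC7), 3 (DDC28), 4 (BDL28 against BDL7), 4 (VEHICLE against SHAM), 0 (VEHICLE against CTLD, CTLD against SHAM and DDC28 against DDC7) and 1 (ligation against DDC effect at day 7 and at day 28). The ligation against DDC difference at day 7 became 2 with a pseudocount of 0.1 or 5, total-count scaling, edgeR or DESeq2, 3 with quantile normalization, 9 with only the groups compared in the fit and 8 without VEHICLE replicates 1 and 2; at day 28 it became 0 with no filter and 3 without those libraries. CsA7 became 0 with no filter, quantile normalization, only the groups compared or those libraries out, and 10 with edgeR and DESeq2. CsA28 became 4 with edgeR and 9 with DESeq2. DDC7 became 1 with no filter, 4 with quantile normalization, 6 with only the groups compared and 5 without those libraries. DDC28 became 1 with no filter and 6 with only the groups compared, where DDC28 against DDC7 became 1. VEHICLE against SHAM became 0 with only the groups compared, 8 with edgeR and DESeq2 and 2 without those libraries. VEHICLE against CTLD became 3 with edgeR and 7 with DESeq2. CTLD against SHAM became 2 with only the groups compared and without those libraries, and BDL28 against BDL7 became 7 without them.

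With 1 library left out at a time, the counts ran from 0 to 9 for CsA7, 0 to 3 for CsA28, 1 to 7 for VEHICLE against SHAM, 0 to 2 for VEHICLE against CTLD, 1 to 2 for DDC7, 1 to 2 and 0 to 1 for the ligation against DDC differences at days 7 and 28. For CsA7 they were 0 without VEHICLE replicate 1 or 2 and 7 and 9 without replicate 3 or 4. Shares of all genes called in the fits with 1 library left out are not given. Among differences that passed the test with or without the change of setting, signs reversed in 3: Orm1 at DDC7 after quantile normalization (0.45), and Saa1 and Saa2 in VEHICLE against SHAM without both high libraries (-1.87 and -1.97). Among differences that passed in neither fit the sign often changed without those libraries. Counting these and the 2 above, it changed for 6 of 10 genes at CsA7, 7 at CsA28, 6 in VEHICLE against SHAM and 9 in VEHICLE against CTLD, and for 0 in the other 11 comparisons. Total-count scaling moved the median log2 change of all genes to 0.33 at BDL7, 0.29 at BDL28, 0.13 at CsA7, 0.38 at DDC7 and 0.39 at DDC28, against 0.04 or less as deposited.

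Equal replicate numbers did not pair the libraries: 0 of 4 pairs had a residual correlation above 0.1 in each comparison of groups except BDL28 against BDL7, with 2, and a library correlated best with its own number in at most 3 of 4 pairs. These are the numbers of the sample descriptions. The sample titles carry other numbers, of which the groups compared share 2 to 4, and 0 of those pairs were above 0.1 in the 12 comparisons of groups. With the replicate number as a block, DDC7 had 1 member called and the ligation against DDC difference at day 28 had 0. Genes with few reads, such as Lcn2 and Saa3 in the controls, have imprecise folds.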
